A study of Homo sapiens with 2 samples.

Results

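Aminoacyl-tRNA synthetases, the enzymes that attach each amino acid to its tRNA, were examined for peaks of mTOR on chromatin. The genes were chosen by their symbols: the 1-letter amino acid code followed by ARS, with or without 1 or 2, together with EARS2, PARS2, EPRS1, FARSA, FARSB and the scaffold genes AIMP1 and AIMP2. This gave 39 of the 19974 protein-coding genes on chromosomes 1 to 22 and X. Of these, 11 were named as the nearest gene of a peak, and they held 15 of the 21440 peaks. The cells were MDA-MB-231, a long-established human line of triple-negative breast cancer, grown in DMEM with serum. Chromatin enriched with an antibody against mTOR gave 1 library, and input chromatin gave 1 library, against which peaks were called. Neither library had a replicate, no treated or mutant cells were included, and no read counts accompanied the peaks, so the depth is unknown and no test between conditions was possible. A missing peak therefore does not show missing binding.

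Human cells charge tRNAs in both the cytosol and the mitochondrion, and for most amino acids separate nuclear genes encode the enzymes of each compartment. By convention the mitochondrial enzyme carries the suffix 2. GARS1 and KARS1 are exceptions in which 1 gene gives both forms, and EPRS1 joins the glutamate and proline enzymes in 1 cytosolic chain. Several cytosolic enzymes are held with the scaffold proteins AIMP1 and AIMP2 in the multisynthetase complex. mTOR complex 1 senses amino acids and promotes translation, partly through the transcription factor ATF4, whose known targets include cytosolic synthetase genes. One synthetase, LARS1, is also known as a leucine sensor upstream of mTOR complex 1.

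The main comparison was between mitochondrial and cytosolic enzymes. A promoter peak is 1 that the deposited annotation gave to the gene and that lay at least in part within 1 kb of its start site; any other peak given to the gene is called distal. Mitochondrial enzymes had a promoter peak at 6 of 17 genes (35.3%, exact Clopper-Pearson 95% interval 14.2 to 61.7%) and cytosolic enzymes at 2 of 20 (10.0%, 1.23 to 31.7%). In all, 8 of the 39 genes had one (20.5%, 9.30 to 36.5%), against 15.5% of all protein-coding genes. Both compartments' intervals included that background share and overlapped each other. Genes are not replicates, so the intervals cover counting error only and the difference of 25.3 percentage points, mitochondrial minus cytosolic, carries no test. Distal peaks were found at 2 of 17 mitochondrial (11.8%, 1.46 to 36.4%) and 3 of 20 cytosolic genes (15.0%, 3.21 to 37.9%), against 32.5% of all protein-coding genes. With a window of 5 kb, or with the 10720 higher-scoring peaks, the counts were 2 mitochondrial and 2 cytosolic genes. The shares of all protein-coding genes were then 28.8% with 5 kb and 21.2% with the higher-scoring peaks. For the main counts both intervals included the 32.5% background, whereas that of the whole family, 5 of 39 genes (12.8%, 4.30 to 27.4%), lay below it. That low share depends on the assignment of peaks to genes. Counted by position inside the gene, without regard to the assigned gene, 8 of the 39 genes had a peak, against 22.7% of all protein-coding genes.

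**Figure D1:**
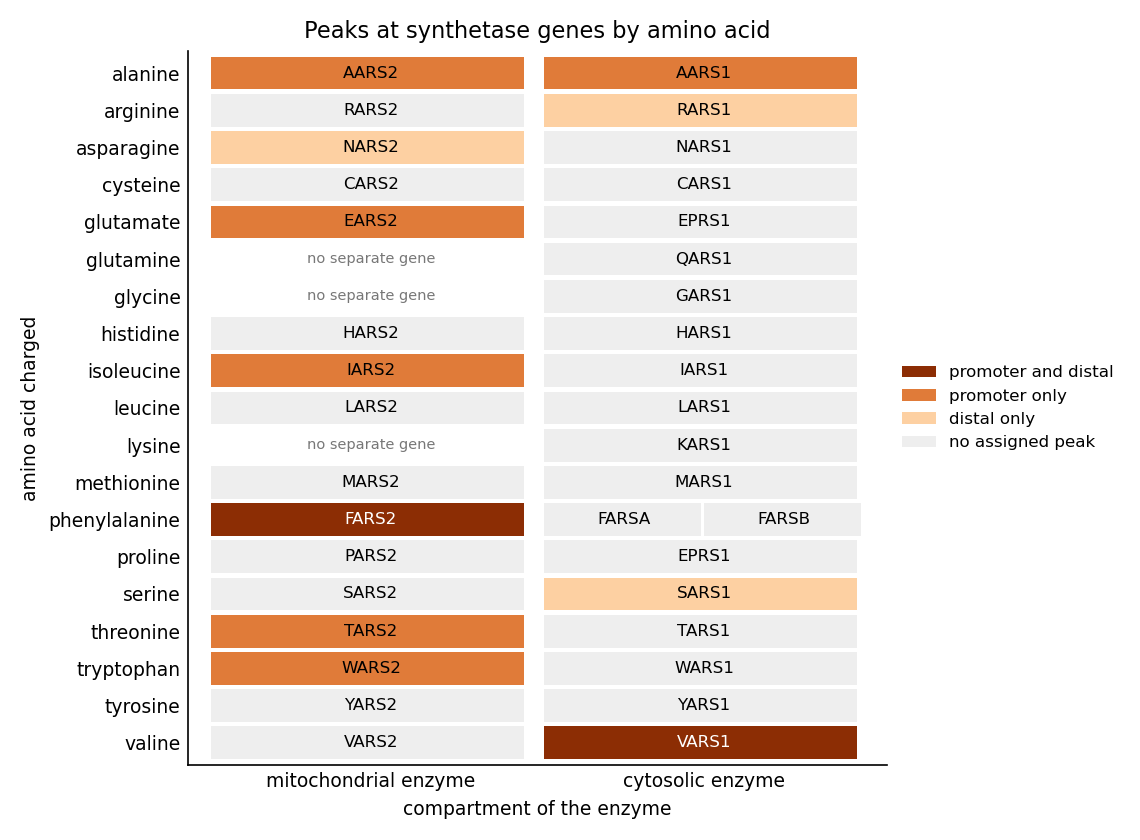
Peaks assigned to each synthetase gene, by the amino acid charged (rows) and the compartment of the enzyme (columns); colour gives promoter peaks, distal peaks, both or none, EPRS1 is drawn under glutamate and proline, and not every gene is drawn. Of the 6 filled promoter cells on the mitochondrial side, only that of alanine faces a cytosolic gene with a promoter peak.

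The genes were also set side by side by amino acid. For 17 amino acids both a mitochondrial and a cytosolic gene exist. In 5 of them, glutamate, isoleucine, phenylalanine, threonine and tryptophan, only the mitochondrial gene had a promoter peak. Valine was the 1 case in which only the cytosolic gene, VARS1, had one, and alanine the 1 case with both, AARS2 and AARS1. In the other 10 neither gene had one. Of all protein-coding genes, 15.5% had a promoter peak. The split sorts the same 6 mitochondrial and 2 cytosolic genes by amino acid, so it adds no separate support to the comparison of compartments.

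EARS2, the mitochondrial glutamyl-tRNA synthetase, had the highest-scoring promoter peak of the family. Its peak had a score of 414, a unitless value deposited by the authors on a scale that is not given in the sources used here. Of the promoter peaks of all protein-coding genes, 97.4% scored lower. The peak lay at chr16:23556662-23557614 on hg38, was 953 bp wide and reached from -264 to 688 bp of the assigned start (negative is upstream), centred at 212 bp. IARS2, which charges isoleucine in mitochondria, had a score of 78 (chr1:220093937-220094209, centre at -59 bp). TARS2, the mitochondrial threonine enzyme, had 74 (chr1:150487154-150487435, centre at -125 bp). These 3 peaks were above the median of 54 for all protein-coding promoter peaks, and the other 5 of the family were below it.

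AARS2, the mitochondrial alanine enzyme, had a promoter peak of score 51 (chr6:44313202-44313593, centre at -50 bp). FARS2, the mitochondrial phenylalanine enzyme, had a wide but low one, of 1072 bp and score 33 (chr6:5260485-5261556, centre at 2 bp). WARS2, which charges tryptophan in mitochondria, had the lowest score of the 8, at 30 (chr1:119140475-119140735, centre at 67 bp). Only 16.9% of protein-coding promoter peaks scored lower than that of WARS2. All 6 mitochondrial promoter peaks covered their assigned start site.

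The 2 cytosolic promoter peaks both missed the start base itself. That of AARS1, the cytosolic alanine enzyme, had a score of 44 and began 82.5 bp downstream of the start (chr16:70289112-70289427). That of VARS1, the cytosolic valine enzyme, had 31 and ended 39 bp upstream of it (chr6:31795791-31796087). Over the family the median promoter score was 47.5 and the median width 306.5 bp, against 54 and 446 bp for all protein-coding promoter peaks. By compartment the median score was 62.5 for mitochondrial and 37.5 for cytosolic genes, where only 2 values enter the cytosolic median. No promoter peak of the family carried a repeat label, and 3.51% of all protein-coding promoter peaks did. Each of the family's promoter peaks carried the deposited promoter-TSS label where a repeat would be named. The missing repeat labels therefore do not show that repeats are absent under these peaks.

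**Figure D2:**
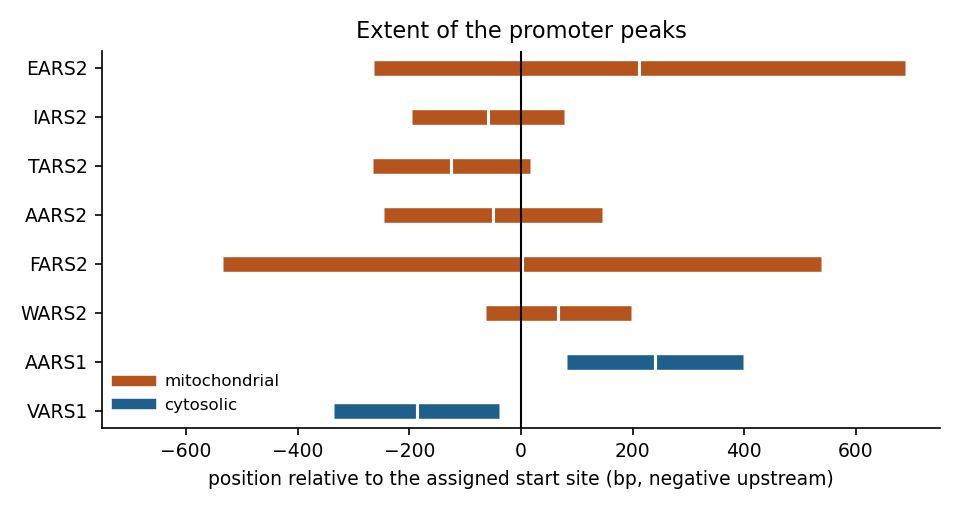
Extent of the 8 promoter peaks in bp from the assigned start site (0, negative upstream); each bar is 1 peak and the white tick its centre. All 6 mitochondrial bars cross 0, while the bars of AARS1 and VARS1 lie to its downstream and upstream side.

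The promoter sequences of 5 mitochondrial genes are shown because each lay at least in part under a peak assigned to that gene. Each is the RefSeq window (GRCh38.p14, the assembly of hg38 at a later patch) from 250 bases before to 50 bases after a start, with the bases under the mTOR peak in capitals. Peaks covered all 300 bases at EARS2 and FARS2, 245 at IARS2, 267 at TARS2 and 132 at WARS2. The AARS1 peak stopped 30 bp short of its window. AARS2 and VARS1 had no window among the RefSeq promoters used, so theirs could not be shown, although the AARS2 peak covered its assigned start.
EARS2, chr16:23557301-23557600, minus strand: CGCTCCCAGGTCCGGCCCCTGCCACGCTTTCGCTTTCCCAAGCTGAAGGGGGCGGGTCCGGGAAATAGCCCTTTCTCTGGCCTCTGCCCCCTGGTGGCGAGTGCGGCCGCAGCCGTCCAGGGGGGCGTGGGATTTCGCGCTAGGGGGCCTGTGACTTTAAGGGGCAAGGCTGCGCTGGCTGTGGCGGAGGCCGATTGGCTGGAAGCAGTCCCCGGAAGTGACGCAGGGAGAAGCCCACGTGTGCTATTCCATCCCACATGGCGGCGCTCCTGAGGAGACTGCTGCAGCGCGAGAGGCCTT
FARS2, chr6:5260757-5261056, plus strand: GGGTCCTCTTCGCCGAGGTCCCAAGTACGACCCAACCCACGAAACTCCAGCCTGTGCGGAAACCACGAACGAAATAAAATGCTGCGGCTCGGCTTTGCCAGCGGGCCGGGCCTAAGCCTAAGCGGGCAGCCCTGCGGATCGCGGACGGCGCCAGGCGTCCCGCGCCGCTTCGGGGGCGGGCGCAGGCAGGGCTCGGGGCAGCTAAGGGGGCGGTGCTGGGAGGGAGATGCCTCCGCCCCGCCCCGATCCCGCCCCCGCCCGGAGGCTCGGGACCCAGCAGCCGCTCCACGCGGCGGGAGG
IARS2, chr1:220093882-220094181, plus strand: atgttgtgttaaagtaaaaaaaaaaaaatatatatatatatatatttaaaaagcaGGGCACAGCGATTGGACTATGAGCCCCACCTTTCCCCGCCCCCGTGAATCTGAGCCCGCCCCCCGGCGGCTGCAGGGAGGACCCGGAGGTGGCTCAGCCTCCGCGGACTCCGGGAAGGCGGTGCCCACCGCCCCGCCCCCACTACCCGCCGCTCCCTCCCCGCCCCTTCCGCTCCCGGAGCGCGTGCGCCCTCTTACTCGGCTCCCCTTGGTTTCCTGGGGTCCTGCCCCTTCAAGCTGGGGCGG
TARS2, chr1:150487169-150487468, plus strand: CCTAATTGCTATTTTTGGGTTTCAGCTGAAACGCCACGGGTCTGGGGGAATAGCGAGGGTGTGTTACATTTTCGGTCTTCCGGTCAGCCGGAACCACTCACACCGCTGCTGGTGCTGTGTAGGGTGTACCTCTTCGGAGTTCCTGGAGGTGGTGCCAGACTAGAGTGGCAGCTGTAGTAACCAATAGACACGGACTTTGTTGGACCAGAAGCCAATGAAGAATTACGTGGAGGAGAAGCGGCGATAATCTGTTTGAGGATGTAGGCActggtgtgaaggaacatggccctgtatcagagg
WARS2, chr1:119140604-119140903, minus strand: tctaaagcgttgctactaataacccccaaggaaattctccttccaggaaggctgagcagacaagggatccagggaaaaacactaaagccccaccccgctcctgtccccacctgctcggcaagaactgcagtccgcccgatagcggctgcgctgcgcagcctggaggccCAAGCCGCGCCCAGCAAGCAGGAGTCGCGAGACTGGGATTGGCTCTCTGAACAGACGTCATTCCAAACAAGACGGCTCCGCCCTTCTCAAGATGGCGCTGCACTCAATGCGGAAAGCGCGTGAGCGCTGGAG

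The 5 windows differed in composition. G and C made up 73.0% of the FARS2 window, with 37 CpG pairs, and 67.3% at EARS2, with 23. IARS2 had 62.3% and 23, WARS2 59.7% and 20, and TARS2 the lowest values, 52.3% and 12. Over the 32 members found in the promoter table, median GC content was 62.3% for the 6 genes with a promoter peak and 61.7% for the 26 without one, with 23 CpG pairs in either. All protein-coding promoters had a median of 62.3%, and those with a peak 65.3%. These medians run over all windows listed, 9 for the 6 genes and 35 for the 26. The ranges overlapped, from 52.3 to 73.0% with a peak and from 36.7 to 74.7% without one.

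Motifs were searched in these windows on both strands, with any overlap allowed. The series concerns RONIN, the zinc finger protein THAP11, so its core ACTACANNTCC was searched, as were the E-box CACGTG bound by MYC, MAX and TFEB, the ATF4 element TGATGNAA and the ETS core CCGGAAG. The RONIN core was found at none of the 14 mitochondrial genes in the table and at 1 of the 16 cytosolic ones, CARS1, against 3.26% of 15813 protein-coding genes. CARS1, the cytosolic cysteine enzyme, had no assigned peak. The E-box was found at 3 mitochondrial genes, CARS2, EARS2 and MARS2, at 1 cytosolic gene, IARS1, and at AIMP2, against 10.9% of protein-coding genes. EARS2 was the only 1 of these 5 with a promoter peak, and its E-box was centred at -12.5 bp from the start. The ETS core was present at 7 mitochondrial and 9 cytosolic genes, against 16.5% of protein-coding genes. Of the 6 genes with a promoter peak and a window, 2 held it, EARS2 and TARS2. HARS2 and HARS1 were counted from the same 2 sites, which lie between their starts.

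The ATF4 element was the motif that differed most in number between the compartments. It was found at 1 of 14 mitochondrial and 7 of 16 cytosolic genes, against 3.61% of protein-coding genes. The matches are shown with 10 bases either side, on the strand that reads the motif, with the motif in capitals, followed by the RONIN match of CARS1 in the same form.
YARS2, chr12:32756087-32756094, minus strand: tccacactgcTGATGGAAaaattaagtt
AARS1, chr16:70289686-70289693, plus strand: ctaacttggcTGATGCAActgcgagaaa
CARS1, chr11:3057418-3057425, plus strand: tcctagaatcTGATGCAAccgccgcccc
GARS1, chr7:30594845-30594852, minus strand: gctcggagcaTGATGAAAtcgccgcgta
IARS1, chr9:92293703-92293710, plus strand: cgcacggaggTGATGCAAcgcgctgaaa
MARS1, chr12:57488064-57488071, minus strand: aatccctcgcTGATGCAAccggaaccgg
NARS1, chr18:57621815-57621822, minus strand: ctacgctctcTGATGCAAcgccggaatc
TARS1, chr5:33440967-33440974, minus strand: ctggaccagcTGATGCAAtcgaaaggcg
CARS1, chr11:3057532-3057542, minus strand: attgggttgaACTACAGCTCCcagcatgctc

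Among the cytosolic matches the motif read TGATGCAA in all but GARS1. The matches of CARS1, IARS1, MARS1, NARS1 and TARS1 were centred between -9.5 and 17.5 bp of a listed start, that of GARS1 at -29.5 bp and that of AARS1 at -183.5 bp. Of the 8 genes with a match, AARS1 alone had a promoter peak, and that peak lay on the other side of the start, outside the window. A match is a description of letters and not evidence of binding.

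Some synthetase promoters are shared with a neighbour. A start of another gene on the opposite strand lay within 1 kb at 13 of the 32 members in the promoter table. The FARS2 peak also covered the start of LYRM4, an iron-sulphur cluster assembly factor, 57 bp away on the other strand. The start of UBFD1 lies 352 bp upstream of a listed EARS2 start, and the EARS2 peak did not reach it. HARS2 and HARS1, the mitochondrial and cytosolic histidine enzymes, start 85 bp apart, share 1 region and had no peak there, though they count as 2 genes. SARS2, the mitochondrial serine enzyme, starts 181 bp from the mitochondrial ribosomal protein gene MRPS12, and neither had a promoter peak. At AIMP1 a peak of score 69 (chr4:106316220-106316492) was assigned to TBCK, a gene on the opposite strand. The peak ended 58 bp from a listed AIMP1 start. A listed TBCK start lies 133 bp downstream of that AIMP1 start. The peak's deposited distance to its assigned TBCK start was -147 bp, so the assigned start is a different one. Each peak was given to 1 gene only, so AIMP1 counted as having none.

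The distal peaks included the highest scores of the family. NARS2, the mitochondrial asparagine enzyme, had no promoter peak but 3 distal ones, with scores of 824, 97 and 45. The peak of score 824 (chr11:78583445-78584830, 1386 bp wide) lay in intergenic sequence over an L1MEg element, centred 9273 bp upstream of the start, and 99.4% of all 21440 peaks scored lower. The other 2 lay 403115 and 140932 bp upstream, in introns of TENM4. FARS2 had a peak of 710 in its own intron 1 of 6 (chr6:5323686-5324584, 62622 bp downstream of the start), over the retroviral long terminal repeat LTR19A, and 99.0% of peaks scored lower. The promoter peak of the same gene scored 33. At the cytosolic genes the highest distal score was that of VARS1. VARS1 had 101 in intron 2, over an AluY element, SARS1, the serine enzyme, had 86 in intron 1, over L1ME3, and RARS1, the arginine enzyme, had 53 in an intron of WWC1, over MLT1N2. All 7 distal peaks of the family had a repeat at their centre, against 76.6% of the distal peaks of all protein-coding genes.

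**Figure D3:**
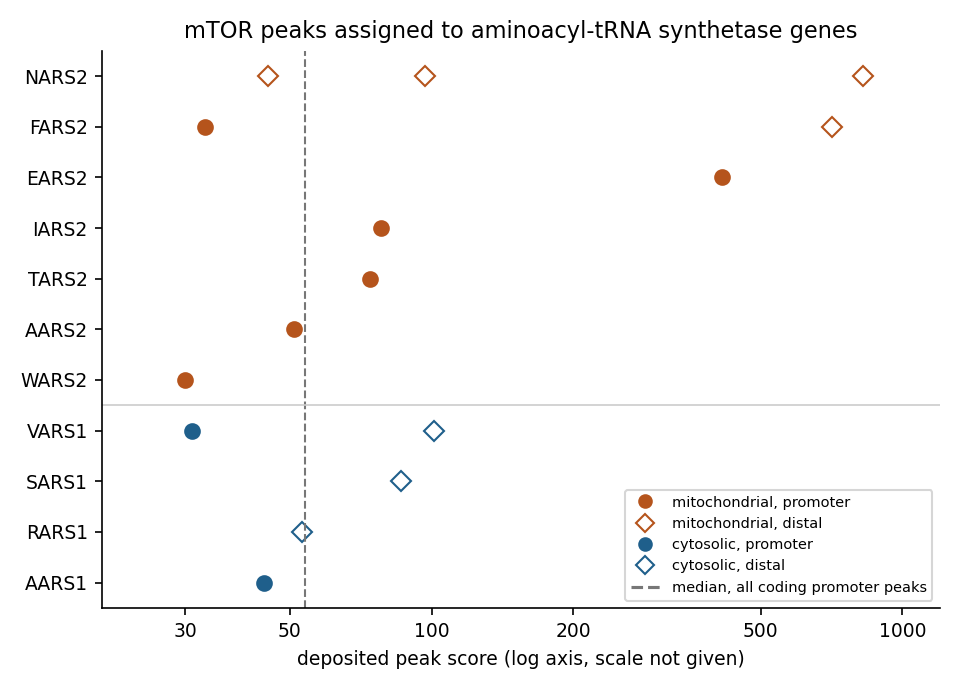
Deposited score (log axis) of each of the 15 peaks assigned to synthetase genes, mitochondrial genes above cytosolic ones; filled circles are promoter peaks, open diamonds distal peaks, and the dashed line is the median of 54 for all protein-coding promoter peaks. NARS2 and FARS2 have the highest points, both distal, and EARS2 the highest promoter peak.

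Some peaks inside synthetase genes were assigned to another gene. There were 10 of them, in 7 genes, and 8 had a repeat at their centre. FARS2, whose span is 521650 bp, held 4 of them, with scores of 132, 97, 61 and 50, all assigned to LOC101927950. NARS2 held 1 of score 45 over L1PA2, and LARS2, the mitochondrial leucine enzyme, 1 of score 64 assigned to LARS2-AS1. On the cytosolic side LARS1 held 1 of score 76 over L1PA7, RARS1 1 of 48 over L1ME3 and IARS1 1 of 27 over L1PA3. The AIMP1 peak described above was the other one. The 1141-score promoter peak of QRICH1 (chr3:49093906-49094943) lay 989 bp beyond the end of QARS1, the cytosolic glutamine enzyme, 9814 bp from its nearest listed start.

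No enzyme of the multisynthetase complex had a promoter peak. The complex holds 8 of the enzymes, among them EPRS1, IARS1, LARS1, MARS1 and RARS1. A count of 0 of 8 allows a share of up to 37.5% by a limit of 3 counts, which includes the 15.5% of all protein-coding genes. RARS1, through its distal peak, was the only one with any assigned peak, while 8326 of all 19974 protein-coding genes had one. Among the 12 other cytosolic enzymes 2 had a promoter peak (16.7%, 2.09 to 48.4%), against 15.5% of all protein-coding genes. Neither AIMP1 nor AIMP2 had an assigned peak. The structural classes of the catalytic domain did not differ in number: class I enzymes had 4 promoter peaks among 18 genes (EARS2, IARS2, VARS1 and WARS2) and class II enzymes also 4 of 18 (AARS1, AARS2, FARS2 and TARS2). EPRS1, which has a domain of each class, was left out of that count.

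In all, 28 of the 39 genes had no assigned peak (71.8%), against 58.3% of all protein-coding genes. They were 10 mitochondrial genes, among them CARS2, HARS2, LARS2, MARS2, PARS2, RARS2, SARS2 and YARS2, 16 cytosolic genes, among them CARS1, EPRS1, FARSA, FARSB, GARS1, HARS1, IARS1, KARS1, LARS1, MARS1, NARS1, QARS1, TARS1 and WARS1, and both scaffold genes.

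Other genes that act on tRNAs or take part in the amino acid and stress response were set beside the family. Partners of charging, such as the amidotransferase that completes glutaminyl-tRNA in mitochondria and the factors of selenocysteine incorporation, had a promoter peak at 6 of 15 genes (40.0%, 16.3 to 67.7%). GATB, a subunit of that amidotransferase, which works on the product of EARS2, had 192, EEFSEC, the selenocysteine elongation factor, 126, AARSD1, an editing protein, 64, and SECISBP2 48. tRNA processing genes had 5 of 28 (17.9%, 6.06 to 36.9%), with the splicing endonuclease subunit TSEN54 at 113, ZBTB8OS, of the tRNA ligase complex, at 109, DDX1 at 48 and RTRAF at 27. tRNA modification genes had 11 of 37 (29.7%, 15.9 to 47.0%), with the dihydrouridine synthase DUS3L at 174, the methyltransferase TRMT1 at 158, the deaminase subunit ADAT2 at 106 and GTPBP3, which acts in mitochondria, at 100. Genes of the amino acid response, a list that also holds the eIF2 kinases of other stresses such as EIF2AK2 and EIF2AK3, had 10 of 32 (31.2%, with an interval reaching down to 16.1%). Among them ATF4 itself had a peak of score 416 (chr22:39520171-39520658, centre at -145 bp), the leucine transporter SLC7A5 had 211, ATF5 98 and CEBPG 86.

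All of these are to be read against the background of 15.5%; the bounds cover counting error only and the lists were not tested. The mitochondrial synthetase share of 35.3% stood close to that of 77 mitochondrial ribosomal protein genes, at 28 of 77 (36.4%, 25.7 to 48.1%), whose products use the charged tRNAs. The ribosomal protein interval lay above the background, while the synthetase interval, 14.2 to 61.7%, included it. Charging partners (40.0%), amino acid response genes (31.2%) and tRNA modification genes (29.7%) were also near 35.3%, and tRNA processing genes (17.9%) were lower. The intervals of charging partners, amino acid response genes and tRNA modification genes also lay just above the background, with lower bounds of 16.3, 16.1 and 15.9%. That of tRNA processing genes included the background.

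**Figure D4:**
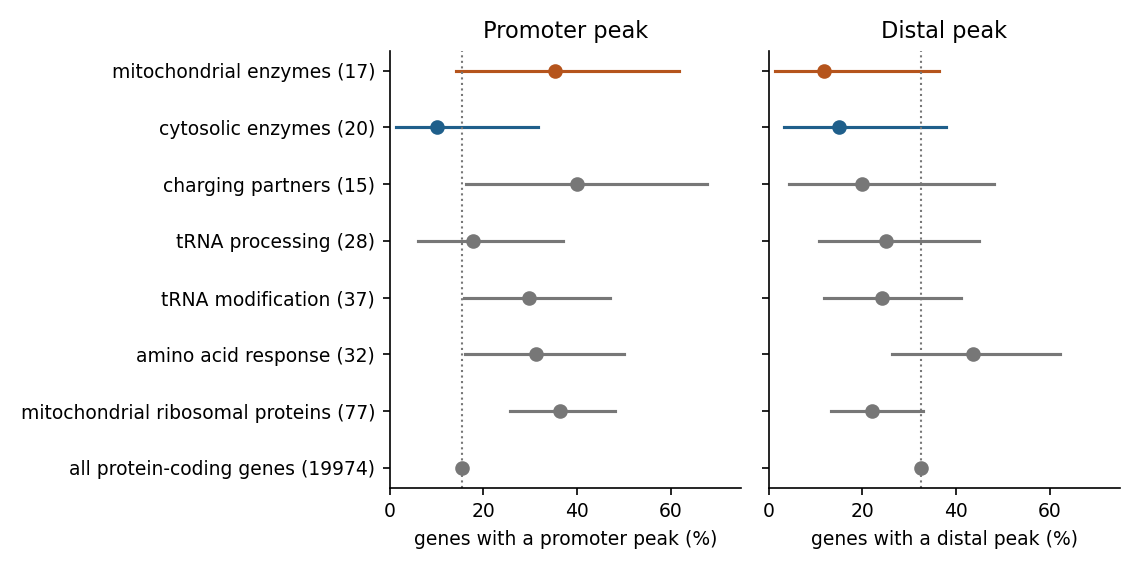
Share of genes (%) with a promoter peak (left) and a distal peak (right) in each group, with the number of genes in brackets; points are shares, lines exact 95% intervals that cover counting error only, and the dotted line is the share of all protein-coding genes. Mitochondrial enzymes lie at 35.3% and cytosolic enzymes at 10.0% for promoter peaks, and both intervals cross the dotted line.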

How the data were processed

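Peaks of 1 mTOR ChIP library were analysed; no file of the input library was used here. The submitters' processing notes name Trimmomatic 0.36, BWA 0.7.12, Picard 2.0.1, MACS2 2.1.1.20160309, HOMER 4.11.1 and build hg38, without settings. The sources used here give neither peak thresholds nor the handling of duplicate and multiply aligned reads; these could change peaks over repeats. The peak score deposited by the authors is a whole number from 13 to 5636 (median 61) on an unstated scale, used only to describe and rank. Positions, distances to the start site, annotation classes and nearest genes are used as deposited.

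Members were matched by gene identifier, since the deposited table uses older symbols (VARS for VARS1), to a RefSeq gene table on GRCh38.p14 that held 99.7% of the peaks' genes. The promoter call used the deposited distance and the peak width and was checked on simulated distances. Promoter sequences came from RefSeq and matched 32 of the 39 members. Some members are counted but not reported by name here. The members, lists and motifs were chosen with earlier results of these data known. Named genes are every member with a peak, and in each list the 4 with the highest promoter scores. Alternatives were a narrower window (100 bp) and a wider one (5 kb), the promoter class as deposited, the 10720 higher-scoring peaks, peaks without a repeat label, position without regard to assignment, and cytosolic genes without GARS1 and KARS1. Intervals came from scipy 1.17.1, tables from pandas 2.3.3 with numpy 2.4.6, and plots from matplotlib 3.10.9, under Python 3.11.15.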

Additional observations from a re-analysis of the deposited data

How the results depend on the processing

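Among the 10720 higher-scoring peaks (lowest score 61, where ties were split by their order in the list) 3 members kept one, EARS2, IARS2 and TARS2, which is 3 mitochondrial and 0 cytosolic genes, and 7.45% of all protein-coding genes had one. The median score of those 3 was 78. The narrower window of 100 bp, the wider one of 5 kb, the promoter class as deposited and peaks without a repeat label gave the same 8 genes, while the share of protein-coding genes called ranged from 10.9% with 100 bp to 20.3% with 5 kb. For peaks without a repeat label this outcome was fixed in advance, since all 8 peaks carry the promoter-TSS label in place of any repeat label. The window of 5 kb added the AluY peak of VARS1, which set the median score at 51. Without peaks that carry a repeat label 0 members, 0 mitochondrial and 0 cytosolic genes, had a distal peak, which follows from the repeats at all 7; 10.6% of protein-coding genes then had one. Counted by position alone, without regard to the assigned gene, 8 members had a peak inside the gene away from its ends, 5 of them cytosolic, and 10 had one within 1 kb of either end of the gene, against 22.7% and 19.2% of protein-coding genes by the same rule. That set lacks FARS2, whose annotated span begins upstream of its peak, and adds AIMP1 and, through the far end of the gene, HARS2 and QARS1. Leaving out GARS1 and KARS1 kept 2 cytosolic promoter and 3 cytosolic distal genes. The mitochondrial minus cytosolic difference in promoter share was 17.6 points with the higher-scoring peaks. It was 25.3 in the other settings by assigned gene for which it was computed. By position the difference was 20.3 points, but that value counts peaks near either end of the gene and is not a promoter share. No paired analysis was possible because there was 1 library and no test. Without replicates, input signal or read counts, the spread of peak calls at low scores is unknown.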
